A study of Mus musculus with 99 samples.

Results

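The cells described here were 32 single outer hair cells (OHCs) of wild type, picked from mouse cochleae at postnatal day 30 and chosen by their titles alone, out of 99 cells in the series. Outer hair cells form the rows of the organ of Corti that amplify sound: the motor protein prestin, packed into their lateral wall, changes the cell's length with its membrane voltage. A hair bundle on top of the cell opens mechanotransduction channels when it is deflected, and an efferent synapse at the base, with a nicotinic receptor coupled to a calcium-activated potassium channel, turns the amplifier down. Such cells are known for very high levels of the calcium-binding protein oncomodulin. The mice were of the C57BL/6 strain and of genotype Slc26a5-CreER/+; Ai9/+, so they carried an inducible Cre at the prestin gene, which drives it in OHCs, and a reporter that makes the red protein tdTomato after recombination. Red cells were taken singly by hand under a fluorescence microscope, so cells without recombination were not sampled. The other 67 cells of the series, used only for a few side values, came from Slc26a5-CreER/+; Rosa26Tbx2/+ mice at postnatal day 42 and are OHCs with ectopic Tbx2 that convert toward inner hair cells (cIHCs); Slc26a5-CreER is shared by both groups. The labels name no animal and give no detail of the induction, so the 32 cells count as 1 sample: no test was made, and every spread given is a spread between cells.

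Each cell held between 5656512 and 9287413 counts, and 1 read was worth 0.108 to 0.177 CPM, the count divided by the cell's total and scaled to 1000000. Between 4769 and 8567 genes had reads in a cell. Reads of Xist reached 10 CPM in 4 cells and those of Y-linked genes in 24 others, with 0 cells holding both and 4 holding neither, so cells of both sexes were present. Genes of supporting cells, glia, blood and mesenchyme were close to absent in most cells. Summed over 14 supporting cell genes the median cell held 0.0762 CPM, and the highest was OHC 22 with 1722 CPM, followed by a cell with 244.6 CPM. Over 9 mesenchymal genes the median was 0.141 CPM and OHC 22 again led with 1315 CPM, while the maxima over 5 glial and 12 blood and macrophage genes were 174.1 and 127.2 CPM. The transcription factor Sox2, which defines supporting cells, had 2 counts in all, and the macrophage gene C1qa had 0. The lists for cochlear neurons and stria vascularis were not near 0, with median cells of 1607 and 208 CPM. Their reads came mostly from Calb2, Gata3 and Snap25 among the 10 neuronal genes and from Atp1b2 and Slc12a2 among the 8 of the stria. Some of these genes are known from hair cells too, and whether the reads came from the OHCs themselves was not tested.

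A few cells stood apart and are named wherever they carry a value. OHC 32 (the number is that of its title) had the fewest genes with reads, at 4769, and the lowest median rank correlation with the other cells (Spearman's rho across genes), at 0.322 against 0.350 in the next. Of 709 genes with a median of at least 200 CPM over the other cells, 102 lay below 10% of that median in OHC 32, against a median of 35 and a maximum of 54 in the other cells judged the same way. Conversely 111 genes with 200 CPM or more in OHC 32 exceeded 2 times the highest of the other cells, against at most 58 elsewhere. OHC 31 was the reverse. It had reads of 8567 genes, against 7123 in the next cell, and 2 genes below 10% of the others' median and 0 above 2 times the others' maximum. OHC 22 held the supporting cell and mesenchymal reads given above, and their part in its other values was not tested.

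The label was checked against 6 OHC genes. Slc26a5 is not an independent check, since Cre made at that gene switched on the reporter by which cells were picked. Slc26a5, Ocm, Aqp11, Lbh and Chrna10 had reads in all 32 cells, a share of 100% with an exact Clopper-Pearson 95% interval of 89.1 to 100%, and Ikzf2 had them in 31 (96.9%, 83.8 to 99.9%). These intervals, like the Poisson intervals below, cover counting error only, because reads were counted after amplification and without molecular identifiers. Over all 19871 genes with reads in any OHC, 3.91% had reads in all 32. Slc26a5, which encodes prestin, had 994 CPM in its lowest cell, OHC 32, a median of 2026 CPM and 2913 CPM in its highest, OHC 17. Without OHC 32 the lowest cell had 1172 CPM, so no cell stood far below the rest. Ocm (chr5:144019804-144026670 on the minus strand of mm10), which encodes oncomodulin, ran from 17896 CPM in OHC 22 over a median of 43601 to 62656 CPM in OHC 12. The next lowest cell had 34818 CPM, so OHC 22, the cell with the most supporting cell and mesenchymal reads, alone was low. Aqp11, a water and glycerol channel of internal membranes, was also lowest in OHC 22, at 376 CPM against a median of 1941 and a maximum of 3378 CPM. Lbh, a transcriptional cofactor needed for OHC maintenance, ran from 292 over 1335 to 2542 CPM, and Chrna10, a subunit of the efferent nicotinic receptor, from 117 over 496 to 881 CPM. The exons of Chrna10 overlap those of Art1, which lies on the opposite strand, and since the sources do not say whether strand was used, its level is uncertain. Ikzf2, which encodes the OHC regulator Helios, had no read in OHC 7 and 0.277 CPM in the next lowest cell, with a median of 324 and a maximum of 799.8 CPM. A cell with 0 reads cannot be told apart from a cell whose few transcripts were not captured, here and below.

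**Figure D1:**
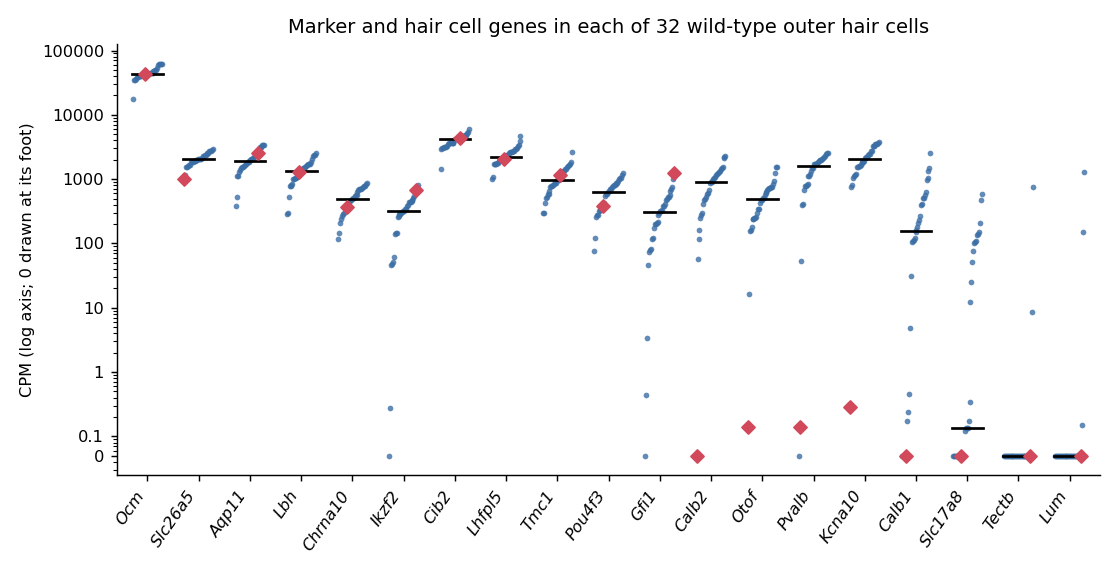
CPM of 19 genes in each of the 32 OHCs on a log axis, 1 point per cell in ascending order, with the median as a line and OHC 32 as a red diamond; cells at 0 are drawn at the foot. The OHC genes Ocm, Slc26a5, Aqp11, Lbh and Chrna10 have reads in every cell, with 1 low cell, OHC 22, for Ocm, OHC 32 is at or near 0 for Calb2, Otof, Pvalb and Kcna10, and Tectb and Lum have reads in 2 and 3 cells.

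The promoters of Slc26a5 and Lbh are shown because both genes had reads in every OHC, and of the 5 markers matched in RefSeq only Lbh holds a TATAAA, the core of the TATA box. Both stretches are the 80 bases before the start in build GRCm38.p6, written 5′ to 3′ on the gene's strand, with TATAAA in capitals. That of Slc26a5 is chr5:21865605-21865684 on the minus strand and that of Lbh chr17:72918225-72918304 on the plus strand.
Slc26a5: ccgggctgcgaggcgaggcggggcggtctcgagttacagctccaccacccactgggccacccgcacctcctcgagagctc
Lbh: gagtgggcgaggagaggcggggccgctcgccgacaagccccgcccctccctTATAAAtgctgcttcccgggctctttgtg
In Lbh the first base of TATAAA lies 29 bases before the start, and Slc26a5 has no TATAAA on either strand of the 300-base window from 250 bases before to 50 after the start. Of all 27025 RefSeq windows of this kind, 2.23% held TATAAA on the gene's strand wholly between 40 and 15 bases before the start, and 14.1% held it on either strand anywhere in the window. Over genes with at least 10 CPM in the summed OHCs, these shares were 0.899 and 6.08%. A match of letters is a description, not a binding site.

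Genes of hair cells in general were found in most cells, as were other genes of like level. Of 12 such genes, 9 had reads in all 32 cells and 12 in at least 16, with a median pooled level of 540.7 CPM, against a median of 5.27 CPM over the 19871 genes with reads. Pooled levels sum the counts of the 32 cells before scaling. Pou4f3, the transcription factor that keeps hair cells alive, ran from 75.9 over 640.2 to 1259 CPM. Gfi1, which acts downstream of Pou4f3, had no read in OHC 19, a median of 309.5 CPM and its maximum of 1259 CPM in OHC 32, the next highest cell having 1014 CPM. Rbm24, a splicing regulator of hair cells, never fell below 188 CPM, and the motor genes Myo6 and Myo7a had medians of 1587 and 494 CPM. Otof, which encodes the calcium sensor of vesicle release at hair cell synapses, had 0.142 CPM, 1 read, in OHC 32 but a median of 493 and a maximum of 1550.5 CPM. Barhl1 was the least often found, with reads in 26 cells. Atoh1, the factor that starts hair cell development, had 0 reads in all 32 cells, with an exact upper bound of 10.9% of cells and a limit of 9.38% by the rule of 3 counts.

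Of 11 genes used to mark inner hair cells, the sensory cells beside the OHCs, 2 had reads in all 32 OHCs and 3 had none in any. Cabp2, which encodes a calcium sensor of the calcium channel, ran from 194 over 953 to 1768 CPM, and Otof was the other of the 2. Slc17a8, whose product loads glutamate into inner hair cell vesicles, had reads in 19 cells and at least 10 CPM in 13, with 594 CPM in OHC 22. Tbx2, the transcription factor that sets the inner hair cell fate, had 3 counts, 1 in each of 3 cells, and Fgf8 had 20 in 2 cells. Atp2a3 and Dnajc5b reached 10 CPM in 3 cells each, and Rprm, Slc7a14 and Shtn1 had 0 reads. In all, 4 of the 11 genes had reads in at least 16 cells: Cabp2, Otof, Slc17a8 and Calb2. Calb2 had reads in every OHC but OHC 32, and its levels are given below with the calcium-binding genes.

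The hair bundle took 1.28% of the counts over 38 genes, with 0.933 to 1.57% in single cells. Of the 38, 13 had reads in all 32 cells and 1 had none. Myo15, the motor that carries proteins to the tips of stereocilia, had 569 CPM in its lowest cell, a median of 1875 and a maximum of 3529 CPM. Strc, which encodes the top connector stereocilin, ran from 298 over 589.6 to 1357 CPM, highest in OHC 32 (second 1057 CPM), and Espn, an actin bundler, from 292 over 849 to 1697 CPM. Fscn2, another actin bundler, was found in 29 cells with a median of 239 CPM and 0 in the other 3, and Xirp2 in 28 with a median of 245 CPM. Of the 2 cytoplasmic actins, Actg1 had 139.6 CPM per kilobase of exon and Actb 48.9, the scale on which genes of different length can be set side by side. Pls3, Fscn1 and Tprn were in 1, 2 and 5 cells, and Myo3b had 0 reads.

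Among 13 genes of the transduction channel and its tip link, 8 had reads in all 32 cells and the list took 1.13% of the counts. Per length Cib2, a calcium-binding subunit of the channel complex, led at 2794 CPM per kilobase, followed by Lhfpl5 at 1009.5, Calml4 at 537 and the pore gene Tmc1 at 147. In CPM per cell Cib2 ran from 1444 over 4145 to 6095, and its second lowest cell had 2909, so OHC 2 alone was low. Tmc1 ran from 296 over 975 to 2609.8 CPM. The tip link genes Cdh23 and Pcdh15 had reads in 32 and 26 cells, with medians of 368 and 46.4 CPM. Tmie had its maximum of 1139 CPM in OHC 32, against 507 CPM in the next cell. Tmc2, the pore gene of young hair cells, had reads in 2 cells and Cib3 in none. Exons of Cib2 overlap those of Sh2d7, Tmie those of Als2cl and Tomt those of Anapc15, so part of their reads may come from these neighbours. Eps8l2, Jund, Nr2f2, Cacna1d, Prdx5, Tuba1a and Tuba8 overlap other annotated exons as well.

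At the synapses, the efferent receptor genes Chrna9 and Chrna10 and the SK2 channel gene Kcnn2 had reads in all 32 cells. Chrna9 ran from 71.5 over 727 to 1658 CPM and Kcnn2 from 51.2 in OHC 32 over 235 to 616 CPM. Of 23 genes of the afferent ribbon synapse, 3 had reads in all 32 cells: Otof, Cabp2 and Cacna1d, the last encoding the calcium channel that triggers release, with 75.7 over 735 to 1401 CPM. Ctbp2, whose long form is the ribbon protein, was in 30 cells with a median of 59.7 CPM, and the scaffold genes Bsn and Pclo in 7 and 14. Of 16 potassium channel genes, Kcna10 was the highest per length, at 1011 CPM per kilobase, followed by Kcnj13 at 315. Kcna10 had 0.284 CPM in OHC 32, 751 CPM in the next lowest cell and a median of 2034 CPM, so OHC 32 alone was low. The BK channel gene Kcnma1 was in 31 cells with a median of 108 CPM.

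Most of prestin's neighbours in the lateral wall had reads in fewer cells, but they also had lower levels. The median member of their list had 12.0 CPM pooled, against 2080 CPM for Slc26a5. Over all genes, those of 10 to 30 CPM pooled had reads in a median of 9 cells and those of 100 to 200 CPM in 28. Whether the lateral wall genes were less even than other genes of their level was not tested. Of 15 genes of the motor and its spectrin and actin skeleton, Slc26a5 and Sptb were the only ones with reads in all 32 cells. Sptb, a beta spectrin, ran from 16.3 over 412 to 1018 CPM, whereas Sptan1 and Sptbn1, which encode the alpha and a further beta spectrin, were each in 29 cells with medians of 84.3 and 107 CPM. Sptbn5, the large beta spectrin, had 1 count in all, and the sugar transporter gene Slc2a5 had 0.

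Per length, Ocm was the most abundant nuclear protein-coding gene. The 20 genes with the highest CPM per kilobase of exon were mostly nuclear or mitochondrial protein-coding genes, with 4 other RNAs, of which mt-Rnr1, mt-Rnr2 and CT010467.1 are ribosomal and Gm23935 is the fourth. Gm23935 headed the list at 67260.1 CPM per kilobase, but it is annotated as a 57-base microRNA, and all of its 50-base windows also stand in another annotated gene, so its value is uncertain. Ocm followed at 61291 CPM per kilobase, and it alone took 4.49% of all counts, or 44926 CPM when the cells were summed, with exact 95% Poisson bounds of 44899.6 and 44953 CPM. The next nuclear genes were S100a1 at 6848, Acbd7 at 6595, Selenow at 6162, Calm2 at 5190.4, Fbxo2 at 4049 and Skp1a at 3699.8 CPM per kilobase. S100a1 encodes a calcium-binding protein, Acbd7 an acyl-CoA-binding protein and Selenow a small selenoprotein. Fbxo2 and Skp1a encode partners in a ubiquitin ligase that are known as abundant organ of Corti proteins. Cox8a, of cytochrome oxidase, Pcp4, a small neuronal peptide gene, and Cib2 were also among the 20, at 3508, 3298 and 2794 CPM per kilobase. The 20 were the same with the median over cells and without OHC 32, and 18 stayed when counts were not divided by length.

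In single cells these genes were even, and OHC 32 was the lowest or the highest cell for several. S100a1 had 1146 CPM in OHC 32 and 2711 CPM in the next lowest cell, with a median of 4609 and a maximum of 8401 CPM. Acbd7 was also lowest in OHC 32, at 1448 CPM against a median of 3385 CPM. Fbxo2 was highest there, at 11346 CPM, while the other 31 cells reached at most 7704 CPM around a median of 4806. Selenow stayed between 3412 and 5545 CPM in all 32 cells. Pcp4 overlaps Igsf5, and 9.72% of the 50-base windows of Calm2 stand in other genes, so that these values hold some uncertainty.

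**Figure D2:**
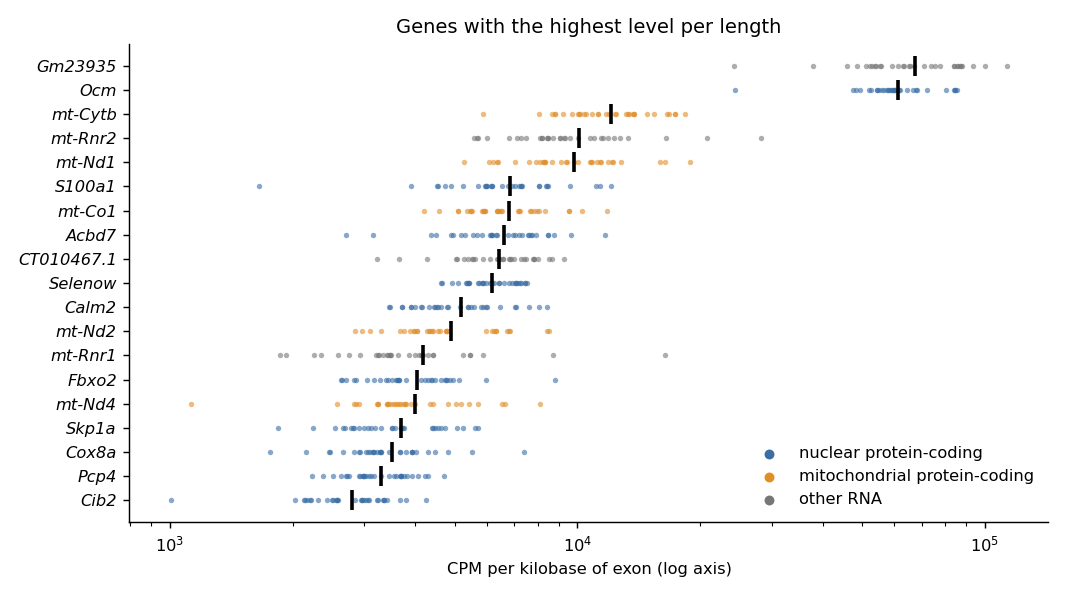
CPM per kilobase of exon, on a log axis, of 19 of the 20 genes with the highest pooled level; each point is 1 of 32 cells and the black mark is the pooled level. The pooled levels of Gm23935 and Ocm lie to the right of all others, and 1 low point of S100a1 is OHC 32.

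Each class below is a list of known genes, given by its share of the counts, by how many members had reads in all 32 cells, against 3.91% of all genes, and by examples. Some genes stand in more than 1 list. The median member had 963 CPM pooled in the calcium-binding list, 403 in the transduction list, 306 in the nuclear respiratory list, 248 in the ribosomal list and 172 in the hair bundle list, against 5.27 CPM over all 19871 genes and 42.4 CPM over the 8376 genes with at least 10 CPM. Genes of calcium-binding proteins took 8.08% of the counts over 16 genes, the largest share of the classes examined. Ocm alone held 4.49%, and without it the class took 3.59%, less than the mitochondrial genome. Single cells ranged from 6.07% in OHC 22 to 10.5% in OHC 30. Without Ocm they ranged from 2.28% in OHC 32 to 4.30% in OHC 30, and OHC 22 was the second highest. Divided by length, the same genes made up 15.6% of the summed level. Within the class 8 genes had reads in all 32 cells, 7 in some and Calm4 in none. Sri, which encodes sorcin, ran from 966 over 2926 to 5007 CPM. Pvalb, which encodes parvalbumin, had a median of 1602 CPM but 0 in OHC 17 and 0.142 CPM in OHC 32. Calb2, which encodes calretinin, had 0 in OHC 32, 56.8 CPM in the next lowest cell, a median of 901 and a maximum of 2265 CPM. Calb1, which encodes calbindin, was more uneven: it had reads in 26 cells, at least 10 CPM in 22, a median of 157 CPM and 2543 CPM in OHC 22, the second highest cell having 1502 CPM. Of 10 calcium pumps and exchangers, Atp2b2, which encodes the pump of the hair bundle, was the highest per length, at 58.2 CPM per kilobase, and had reads in every cell, from 94.7 over 701 to 1422 CPM. Atp2b1 was also in all 32, with a median of 204 CPM.

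Genes of energy supply came next. The 13 protein-coding genes of the mitochondrial genome took 4.93% of the counts, between 2.79% in OHC 32 and 8.46% in OHC 13, and each had reads in all 32 cells. Of these mt-Cytb, mt-Co1, mt-Nd1, mt-Nd4, mt-Nd2, mt-Nd5 and mt-Nd6 had pooled levels of 1322 to 13875 CPM, and the other 6 had 3.70 to 199 CPM. Of those 6, mt-Co2, mt-Co3, mt-Atp6, mt-Nd3 and mt-Nd4l shared 98.0 to 100% of their 50-base windows with other annotated genes, among them pseudogenes such as Gm28437, itself counted at 718.5 CPM, so how the reads were split leaves their levels uncertain. Windows of mt-Co1 and mt-Nd4 were shared to 51.1 and 62.2%. Over the pairs of the 7 abundant mitochondrial genes Spearman's rho between cells had a median of 0.65 and a range of 0.39 to 0.79 (n = 32 cells, which share the divisor of 1 total each), against a median of 0.00 and quartiles of -0.12 and 0.13 over all pairs of the 510 genes with at least 300 CPM.

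Nuclear genes of the respiratory chain and ATP synthase took 3.45% of the counts over 87 genes, and 57 of these had reads in all 32 cells. Cells lay between 2.85 and 4.55%. Cox8a led per length, and Cox4i1, another oxidase subunit, was lowest in OHC 32 at 271 CPM against a median of 1212 CPM. The genes without reads in any cell, Cox4i2, Cox6a2, Cox8b, Cox8c and Cox7b2, are forms known from lung, muscle or testis. Over 44 of the nuclear genes with at least 300 CPM, pairs had a median rho of 0.05 (n = 32), close to the median over all pairs.

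Glycolytic genes were fewer and patchier. Of 22 genes of glucose uptake, glycolysis and lactate, 3 had reads in all 32 cells, Gapdh, Aldoa and Eno1, and the list took 0.279% of the counts. Gapdh ran from 229 over 781 to 1578 CPM. Ldhb, the lactate dehydrogenase subunit typical of oxidative cells, had reads in 30 cells and 228 CPM per kilobase, against 11 cells and 14.4 CPM per kilobase for Ldha. Ldha was highest in OHC 32, at 447 CPM, and then reached 330.3 CPM. Creatine kinase genes were Ckb, in 31 cells with a median of 417 CPM, and the mitochondrial Ckmt1, in 31 with a median of 220.2 CPM, while Ckm and Ckmt2 had 0 reads.

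Of 24 antioxidant genes, 4 had reads in all 32 cells, and Gpx2, a selenium-dependent glutathione peroxidase best known from the gut, led per length at 1513 CPM per kilobase. It ran from 1734 CPM in OHC 22 over 4682 to 8194 CPM in OHC 16. Prdx5, a peroxiredoxin, had 592 CPM per kilobase and a range of 564 over 1188 to 2904 CPM, and Gpx4, the lipid peroxidase, 461 CPM per kilobase and 194 over 736 to 1403 CPM. Catalase (Cat) had 1 count in all, and Nqo1 and Hmox1 were in 3 and 1 cells. The 80 bases before the RefSeq start of Gpx2, chr12:76795555-76795634 on the minus strand of GRCm38.p6, are shown because this most abundant antioxidant gene has a window without any CG dinucleotide, with ATTGG, the reverse strand's CCAAT, in capitals.
Gpx2: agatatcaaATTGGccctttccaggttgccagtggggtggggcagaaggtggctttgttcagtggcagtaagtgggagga
Its 300-base window held 0 CG dinucleotides, against the median of 7 over all windows, and CCAAT stood on either strand in 37.8% of all windows. Over genes with at least 10 CPM pooled the median was 22 CG dinucleotides, and 38.6% held CCAAT.

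Genes of protein synthesis, folding and breakdown were found in most cells. Genes of cytosolic ribosomal proteins took 2.52% of the counts over 85 genes, with 1.70 to 3.57% in single cells, and 58 had reads in all 32. Rps29 led per length at 2048 CPM per kilobase and ran from 667 over 1432 to 2139 CPM. Of 13 translation factor genes, 8 were in all 32, among them Tpt1, with 997 over 1562 to 3144 CPM, and Eef1a1, the elongation factor that brings tRNA to the ribosome, with 740.5 over 1240.2 to 2968 CPM. Rpl10l, Rpl3l and Rpl39l, copies known from testis or muscle, had 0 reads. In OHC 32 Rpl7 had 0.142 CPM and Rps15 1.28 CPM, against medians of 605.2 and 376.1 CPM over the other cells. Of 16 heat shock genes 4 had reads in all 32 cells: Hsp90aa1, with 1641 over 3189 to 5507 CPM, Hspa8, Hsp90ab1 and Hspa5. Pseudogene copies share 47.5% of the windows of Hsp90aa1. The stress-induced Hspa1a and Hspa1b were in 6 and 9 cells, and Hspb8 had 0 reads. All 24 genes of ubiquitin and the proteasome were in at least 16 cells, 5 of them in all 32, and Ubb led at 2604 CPM per kilobase. Other genes hold 48.1% of the windows of Ubb and 50.9% of those of Ftl1, so both levels are uncertain. Of 13 tubulin genes 3 were in all 32 cells: Tuba1a, with 70.6 over 409.8 to 1078 CPM, Tuba1b and Tuba1c. Of 5 iron genes, the storage genes Ftl1 and Fth1 were in all 32 cells with medians of 1719 and 1765 CPM, while the uptake gene Tfrc was in 6 cells.

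Immediate early genes, which cells switch on soon after a stimulus, took 0.144% of the counts over 16 genes. Single cells ranged from 117 CPM in OHC 9 over 1148 to 3147 CPM, with OHC 32 above all at 7247 CPM. Jun was in all 32 cells with a median of 580.0 CPM and 3438 CPM in OHC 32, and Jund reached 1374 CPM there against at most 353 CPM elsewhere. Fosb had reads in 11 cells, and without OHC 32 its pooled level fell from 47.1 to 21.1 CPM. Fos was in 19 cells, Egr1 reached 10 CPM in 1 cell, and Fosl2 and Ier3 had 0 reads.

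**Figure D3:**
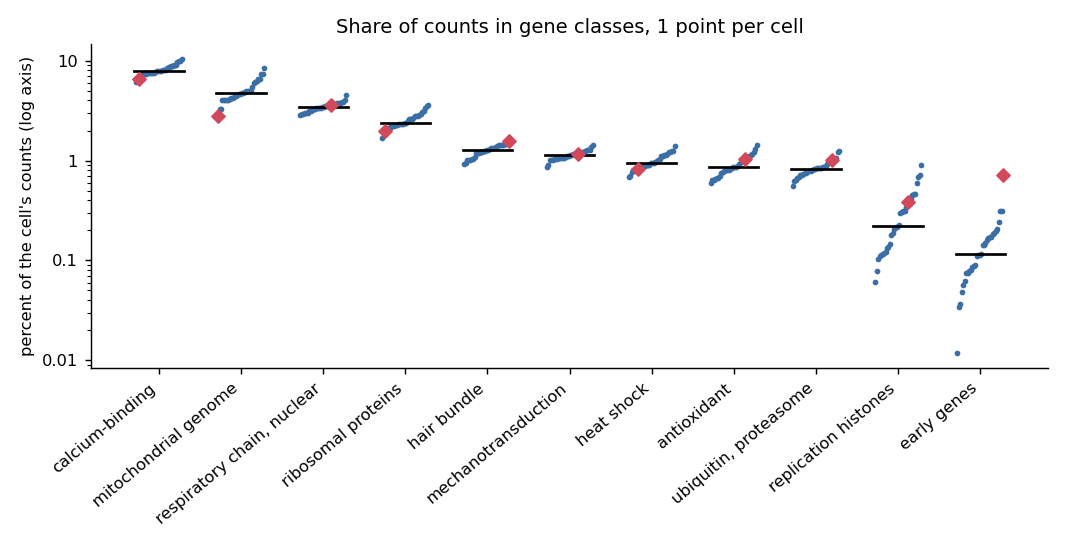
Share of each cell's counts in 11 gene classes, in percent on a log axis, with 1 point per cell, the median as a line and OHC 32 as a red diamond. Calcium-binding genes and the mitochondrial genome are highest, the hair bundle and transduction classes span narrow ranges, and replication histone and early genes span wide ones, with OHC 32 on top for the early genes.

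Transcription factors of the lineage were found at moderate levels. Of 25, 4 had reads in all 32 cells: Pou4f3, Isl1, Lmo4 and Nr2f2. Isl1, a LIM homeobox factor, ran from 30.6 over 518 to 1395 CPM, highest in OHC 22, and Nr2f2, a nuclear receptor, from 20.6 over 181 to 458 CPM. Gata3, counted with the neuronal genes but known from hair cells too, was also in all 32, with 64.8 over 354 to 847 CPM. Lhx3, a further LIM homeobox factor, was in 25 cells. Insm1, which sets the OHC fate during development, had 17 counts in 2 cells, and Prox1 and Sox2, factors of supporting cells, had 5 and 2 counts.

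In all, 776 genes had reads in each of the 32 cells, 638 of them protein-coding and 104 annotated pseudogenes, and together they took 52.2% of the counts. Without OHC 32 the number was 812. The group was not made of high genes alone: 116 of the 776 had under 30 CPM pooled, and 90 of these were pseudogenes. By the gene lists, 58 of the 776 encoded ribosomal proteins, 57 nuclear respiratory chain subunits and 13 hair bundle proteins, and 593 fell outside the 12 lists counted. Reads in every cell need not mean a firm level in every cell. In 219 of the 776 the lowest cell was under 1 CPM, in 423 every cell reached 10 CPM, and in 190 every cell reached 100 CPM. Besides the genes named above, that last group held Lhfpl5, whose lowest cell had 992 CPM, Smpx, a small stereocilia-linked protein whose loss causes deafness, with 755 CPM, and Grxcr2, a hair bundle protein, with 490.0 CPM. At the other end, 4881 of the 19871 genes had reads in 1 cell alone.

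How many cells showed a gene followed its level closely. Genes of 10 to 30 CPM pooled had reads in a median of 9 cells, those of 30 to 100 CPM in 19, those of 100 to 200 CPM in 28 and those of 300 to 1000 CPM in 32. Of the 85 genes with at least 1000 CPM, 84 had reads in every cell, and Pvalb was the other. Values in the middle of the scale were rare. Among genes of 30 to 100 CPM, 40.9% of the single-cell values were 0, 8.32% lay under 1 CPM, 5.89% between 1 and 10 CPM and 44.9% at 10 CPM or more, where their median was 103 CPM. In this band a cell thus showed a gene either plainly or hardly at all. Among genes of 300 to 1000 CPM, 97.7% of values reached 10 CPM.

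**Figure D4:**
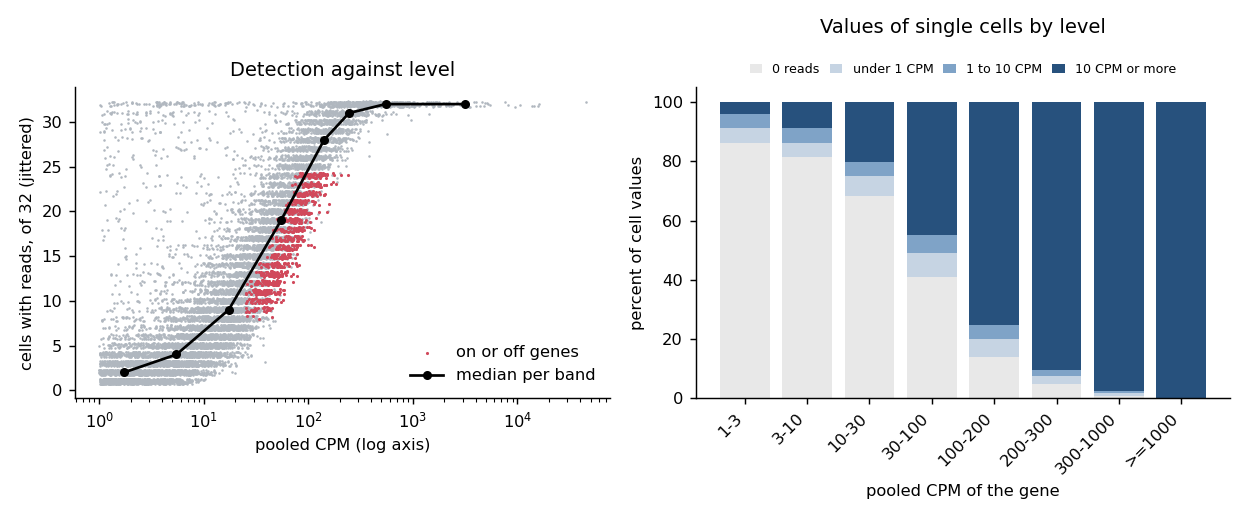
Left, the number of the 32 OHCs with reads of a gene against its pooled CPM on a log axis, for genes with at least 1 CPM, with the median per level band in black and the on or off genes in red. Right, the percent of single-cell values at 0 reads, under 1 CPM, from 1 to 10 CPM and at 10 CPM or more in each band; the middle classes are thin in every band, and values of 10 CPM or more make up 44.9% at 30 to 100 CPM and 99.9% from 1000 CPM.

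A gene was called on or off between cells when at least 8 cells had 10 CPM or more, at least 8 had 0 reads, these 2 kinds made up at least 90% of the cells, and the on cells had a median of at least 100 CPM. The rule held for 805 genes, 4.05% of the 19871 with reads and 9.61% of the 8376 with at least 10 CPM pooled; 671 of them, 83.4%, had pooled levels from 30 to 100 CPM, and none had more than 237.0 CPM. In that band 19.6% of genes met the rule, against 10.4% at 100 to 200 CPM and 0% from 300 CPM. The count without OHC 32 was 793, of which 757 were among the 805, and without the 3 cells with the fewest genes (OHC 32, 17 and 19) it was 439. With 3 cells fewer the minimums of 8 stayed, and the 90% limit in whole cells allowed fewer cells in between. The rule was thus stricter, and how much of the fall came from those 3 cells was not tested. Of the gene lists, the hair bundle, potassium channel, lateral wall, transcription factor, tubulin, antioxidant, nuclear respiratory and sex-linked lists had 1 each. Every other list had 0, among them the lists of 12 hair cell, 13 transduction, 23 ribbon synapse and 85 ribosomal genes. The 12 hair cell genes were all found in too many cells to meet the rule, as were the 58 ribosomal genes with reads in all 32. The counts by list were not tested against the 4.05% of all genes, and they do not show that a class was steady. A cell had between 242 (OHC 32) and 566 (OHC 31) of the 805 genes on, with a median of 359.

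The 20 on or off genes with the highest level in their on cells differed widely in what they do. Morn4, a partner of class III myosins at stereocilia tips, was on in 22 cells with a median of 335 CPM there and had 0 reads in 8. Dynlt3, a dynein light chain, was on in 21 with a median of 277 CPM and off in 8. Bin1, a membrane-bending protein, was on in 15 and off in 16, with 233 CPM in the on cells, and Taf9b, a transcription initiation factor subunit, was on in 10 and off in 20 with 229 CPM. Mitochondrial proteins among the 20 were Slc25a39, the glutathione carrier, on in 22 cells, Acadsb, of branched-chain fatty acid breakdown, in 20, Lias, which makes lipoic acid, in 14, and Fundc1, a mitophagy receptor, in 11. RNA-handling proteins were the helicase Ddx50, on in 19 cells, and Rbm18, on in 17. Smox, a spermine oxidase, was on in 15 and off in 14 at 205 CPM. Wrap73, Pld3, Tfg, Rgs11, Snhg11, Aamp, Gpn1, Pdrg1 and Heatr5b completed the 20, with on-cell medians of 203 to 243 CPM. Bin1, Rbm18, Rgs11, Snhg11, Aamp, Gpn1 and Lias overlap exons of another gene, as do 279 of the 805.

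For genes found in all 32 cells with at least 100 CPM pooled, the spread was taken as the ratio of the 90th to the 10th percentile of CPM over cells. These were 636 genes, 34.2% of the 1860 with at least 100 CPM, and the ratio had a median of 4.54, quartiles of 3.01 and 7.31 and a minimum of 1.42. It was under 2 in 32 genes and 10 or more in 100. The median was 4.50 without OHC 32. Selenow was the steadiest at 1.42, and the steadiest also included Pcp4 at 1.54, CT010467.1 at 1.59 and Cib2 at 1.59. Also among the 15 were Atp5md, Ocm, Cox5a, mt-Atp6, Rn7s2, Rpl37a, Fbxo2, Slc26a5, Ubb and Cox8a, from 1.68 to 1.79, of which Rn7s2, mt-Atp6, Ubb and Rpl37a share 100, 99.5, 48.1 and 19.4% of their windows with other genes. The OHC genes Ocm and Slc26a5 were thus among the 15 steadiest, with ratios of 1.69 and 1.75. Spread narrowed with level, from a median ratio of 8.78 at 100 to 200 CPM to 2.33 from 1000 CPM, and against genes of like level 3 of the 15 stayed among the steadiest. By class, mitochondrial genes had a median ratio of 2.02, nuclear respiratory genes 2.87, transduction genes 3.35 and ribosomal genes 4.08.

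The 15 genes with the widest ratios were Brwd1, Ubxn1, Dstn, Luc7l2, Ube2r2, Kif2a, Spire1, Ptpa, BC005537, Nbr1, Senp2, Spg20, Tmed10, Med25 and Zfp638. In 14 of the 15 the lowest cell was under 1 CPM, so these are genes that most cells showed clearly and a few cells at a read or so. Dstn, which encodes the actin-severing protein destrin, had 0.121 CPM in OHC 7, a median of 154 and a maximum of 662 CPM in OHC 2, and reached 10 CPM in 26 cells. Tmed10, a cargo receptor of the early secretory path, ran from 0.123 over 175 to 741 CPM and reached 10 CPM in 26 cells. Ubxn1, a cofactor of the p97 segregase, reached it in 27 and ran from 0.123 over 157 to 346 CPM. Their pooled levels of 106 to 199 CPM put them in the band in which 75.4% of single-cell values reached 10 CPM.

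Some genes of high pooled level were missing from several cells. Among the 510 genes with at least 300 CPM, 436 had reads in all 32 cells. Spread on the log2(CPM + 1) scale, set against genes of similar level, was largest for Clu, Calb1, H4c3, C1ql1 and Kcnj13. Next among genes with full names came Ppp1r27, Copz1, Uqcrfs1 and Mff, with 0 reads in 4, 2, 3 and 2 cells. The genes described below are a selection from this ranking, which held genes of many kinds. Genes named here that stand in no list were chosen after their values were seen. Clu, which encodes the secreted chaperone clusterin, had 0 reads in 3 cells, at least 10 CPM in 25, a median of 439 CPM and 2711 CPM in OHC 30. C1ql1, a secreted C1q-like protein of synapses, had 0 reads in 4 cells, OHC 7 among them, and at least 10 CPM in the other 28, with a median of 336 CPM over all cells and a maximum of 1259.8 CPM in OHC 2, so cells either lacked it or showed it plainly. Kcnj13, an inward rectifier potassium channel, had 0 reads in 2 cells, OHC 32 among them, at least 10 CPM in 28, a median of 331 CPM and 1134 CPM in OHC 6. Its exons overlap those of Gigyf2 on the other strand, which leaves its level uncertain. Ptn, which encodes the growth factor pleiotrophin, was at 0 in 2 cells and at 1143 CPM in OHC 8, and Cldn14, a tight junction protein whose loss causes deafness, was at 0 in 2 cells and at 1033 CPM in OHC 30. Tuba8, an alpha tubulin, was at 0 in OHC 3 alone, with a median of 376 CPM. P2rx2, the ATP-gated channel, was at 0 in OHC 5 alone, with 5.67 CPM in the next cell and a median of 439.5 CPM.

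Some replication-dependent histone genes, which dividing cells express as they copy their genome, had high and uneven levels. The list of 56 replication-dependent histone genes was drawn up after some of their values were seen. Those with reads carry symbols that GENCODE M21, the annotation used here, does not hold. Neither exon overlap nor shared sequence was checked for them, so the level of each single gene is uncertain. Of the 56, 2 (3.57%) had reads in all 32 cells, close to the 3.91% of all genes, and the median member had 2.79 CPM pooled and reads in 6 cells, its 7 genes without reads included, against 5.27 CPM and 6 cells over all genes with reads. Of its members 20 had at least 10 CPM pooled and 7 had no read, and the list took 0.286% of the counts, from 0.0606% in OHC 2 over 0.223% to 0.910% in OHC 26. H1f2, a linker histone, ran from 0.541 CPM in OHC 6 over 622 to 2308 CPM in OHC 14, and H2bc4 from 0.482 CPM in OHC 7 over 422 to 3359 CPM in OHC 26. H4c3 had 0 reads in 2 cells, reached 10 CPM in 24, and was highest in OHC 18 with 2255 CPM and then in OHC 32 with 1685 CPM; without OHC 32 its pooled level fell from 338 to 297 CPM. H2bc6, H1f3, H4c9 and H2ac6 had pooled levels of 143 to 203 CPM and reads in 29, 24, 27 and 25 cells. Over the 3 pairs among H1f2, H2bc4 and H4c3, Spearman's rho between cells ran from 0.17 to 0.66 (n = 32 cells, given as a description). The replication-independent H3f3b, by contrast, had 325 over 1479 to 3316 CPM, and H2az1 126 over 422 to 961 CPM, with reads in all cells. In the pooled cIHCs H4c3 had 2.91 CPM, H1f2 363 CPM and H2bc4 568 CPM; those cells differ in age and genotype together, and the difference was not tested.

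The promoters of the linker histone genes H1f2 and H1f3 are shown because they carry CCAAT alike but TATAAA in 1 of them only. Both stretches are the 80 bases before the RefSeq start on the plus strand of GRCm38.p6, at chr13:23738727-23738806 for H1f2 and chr13:23554952-23555031 for H1f3, with TATAAA and CCAAT in capitals.
H1f2: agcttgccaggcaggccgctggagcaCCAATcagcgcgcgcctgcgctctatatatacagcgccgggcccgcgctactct
H1f3: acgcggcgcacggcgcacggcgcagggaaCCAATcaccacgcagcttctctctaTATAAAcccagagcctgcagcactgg
In H1f3 the first base of TATAAA lies 26 bases before the start, and H1f2 lacks TATAAA on both strands of its window. Only these exact letters were sought, and the printed stretch of H1f2 holds the similar letters tatatata. Of the 56 genes, 50 had a RefSeq window; 44 of these, 88.0%, held CCAAT on either strand, against 37.8% of all windows, and 10, 20.0%, held TATAAA in the stretch from 40 to 15 bases before the start, against 2.23%.

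**Figure D5:**
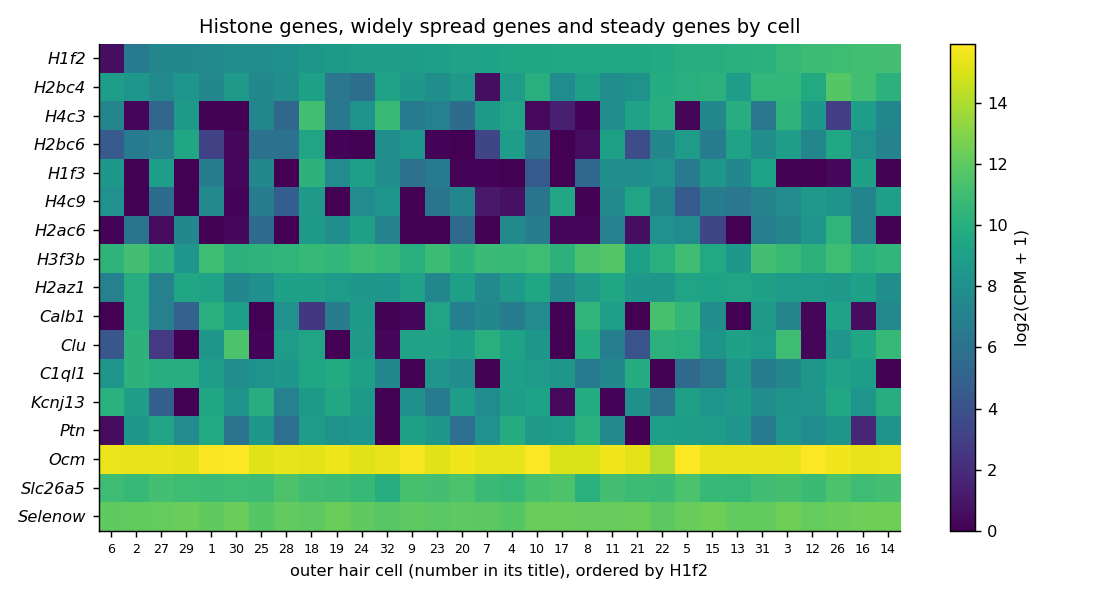
Level of 17 genes as log2(CPM + 1) in each of the 32 OHCs, with cells ordered by H1f2 and numbered as in their titles. Ocm, Slc26a5 and Selenow are even across cells, H3f3b and H2az1 are found in all, and dark squares mark cells without H4c3, H2bc6, H1f3, H4c9, H2ac6, Calb1, Clu, C1ql1, Kcnj13 or Ptn.

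Some genes belonged nearly to 1 cell. Of 6487 genes with at least 20 CPM pooled, 57 (0.879%) had over 50% of their counts in a single cell, 9 of them in OHC 32, 8 in OHC 8, 5 in OHC 15, 4 each in OHC 14 and OHC 22 and at most 3 in any other cell. Tectb, a tectorial membrane gene of supporting cells, had 98.6% of its counts in OHC 22, where it reached 765 CPM, and Lum, a proteoglycan of connective tissue, had 86.8% there, at 1303 CPM. Without OHC 22 their pooled levels fell from 20.1 and 38.8 CPM to 0.297 and 5.24 CPM. Birc3, an inhibitor of apoptosis, had 90.9% in OHC 15 at 531 CPM, and Xlr3a, an X-linked gene, 68.7% in OHC 11 at 950.1 CPM. Ephx1, an epoxide hydrolase, and Endog, a mitochondrial nuclease, had 68.3 and 67.8% in OHC 32. Lins1, Zxdb, Scrn3 and Sirt4 had 67.3 to 76.2% of their counts in OHC 9, 25, 24 and 29.

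OHC 32 had reads of all 6 OHC markers, but other hair cell genes were low or missing there. Kcna10, Pvalb, Otof and Calb2 were at or near 0. Over 8 other genes known from OHCs this cell held the lowest sum, 3616 CPM against a median of 5934 CPM. It had 42609.9 CPM of Ocm, 2517 of Aqp11, 1291 of Lbh and 689 of Ikzf2, all inside the range of the other cells, and 994 CPM of Slc26a5, the lowest of the 32. Genes without reads there included Pdia3, a disulfide isomerase of the endoplasmic reticulum, at 0 CPM against a median of 603.0 CPM over the others. Scg5, a secretory granule protein, was at 0 against 352.7 CPM. Low but not absent were Akr1b3, an aldose reductase, at 0.142 against 810.7 CPM, and Cltc, the clathrin heavy chain, at 21.4 against 619.8 CPM. Beyond Jun, the genes that OHC 32 held above all other cells included Jup, a junction plaque protein, at 1333 against at most 599.8 CPM. Eps8l2, of the stereocilia tips, was at 1171 against 513 CPM, and Stac at 643 against 0.266 CPM. These genes were picked after their values were seen, and the cell is 1 of 32.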

How the data were processed

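Single cells were amplified with the Smart-Seq HT kit and tagmented with the TruePrep kit after enzymatic digestion of the cochlea, per the labels' protocols, which speak of other picked cells; the titles were followed. The authors deposited 1 table of whole-number read counts, 55291 genes by 99 cells. The submitters' processing notes name HISAT2 2.2.1, StringTie 2.2.1, featureCounts 2.0.1 and mm10; strand, annotation and filters are not given in the sources used here. A further 17 OHCs of an earlier study were not analysed here, and the table holds no row for tdTomato or Cre. Columns were matched to cells by title. No cell was filtered, no 2 cells held identical counts, and no doublet caller was run, since cells were picked singly. Counts were divided by each cell's total (CPM). Pooled CPM used the 242054710 counts of the 32 OHCs, with an exact Poisson 95% interval. For levels between genes, pooled CPM was divided by the merged exon length in GENCODE M21, which held 96.4% of the table's symbols and 98.6% of OHC counts. Overlapping exons were read from the same annotation, and shared sequence was counted as 50-base exon windows that also stand in another gene. Promoters came from RefSeq. Shares of cells carry exact Clopper-Pearson 95% intervals.

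Named genes were the 20 highest per length, list members, the 15 steadiest and 15 most spread of the genes found in all cells, the 20 on or off genes with the highest on-cell median, and the 10 genes most held by 1 cell. Others are named as chosen after their values were seen, and a few genes are not reported here. The members and lists were chosen with earlier results of these data known. Alternatives without OHC 32, OHC 31 or Ocm or with protein-coding genes only were chosen after seeing the data. The work used Python 3.11.15 with matplotlib 3.10.9, scipy 1.17.1, numpy 2.4.6 and pandas 2.3.3. The on or off and spread rules were tried on simulated counts, modelled on genes found in most cells. Missed capture was not simulated, so how often it alone meets the on or off rule was not tested.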

Additional observations from a re-analysis of the deposited data

How the results depend on the processing

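With no animal named and 1 read worth 0.108 to 0.177 CPM, these counts describe 32 libraries, and a gene at 0 in a cell may have been missed in capture. The number of genes in all 32 cells ran from 543 to 856 under other read minimums, equal depth or fewer cells, and was 423 when 10 CPM was required. The number of on or off genes rested on the rule: it was 1317 with at least 5 cells of each kind, 2004 when off meant under 1 CPM, 1 when the on cells needed a median of 300 CPM, and 439 without the 3 cells with the fewest genes (OHC 32, 17 and 19), of which 422 were among the 805. The rule was itself stricter with 3 cells fewer, so the part of those 3 cells in the fall to 439 was not tested. At equal depth of 5650000 reads a cell the number of on or off genes was 964. As shares of the length-scaled level, calcium-binding genes held 15.6%, mitochondrial coding genes 8.32%, nuclear respiratory genes 4.92%, ribosomal genes 3.43%, hair bundle genes 0.529%, transduction genes 0.936%, heat shock genes 0.501% and translation factors 0.503%, since the division by length lowers classes of long genes. Of the 15 steadiest genes 9 stayed by coefficient of variation and 3 relative to genes of similar level. Of the 15 most spread 7 stayed by coefficient of variation and 9 without the 3 cells with the fewest genes. Without Ocm the calcium-binding class held 3.59% of the counts. Of 485 named genes with at least 20 CPM, 18 moved by over 1.5 times in pooled CPM when 1 cell was left out, among them Tectb (20.1 to 0.30 CPM) and Lum (38.8 to 5.24 CPM) without OHC 22, Fosb (47.1 to 21.1 CPM) without OHC 32 and Adgrv1 (24.4 to 15.2 CPM) without OHC 8. No paired analysis was possible because title numbers merely count the cells, and no result comes from a test.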

Other observations

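Of 8 genes used for the stria vascularis, the tissue of the cochlear lateral wall that secretes potassium, Kcne1 and Esrrb had 0 reads and Kcnq1, Kcnj10 and Cldn11 had 1 count each. Dct, a melanocyte gene, had reads in 13 cells and at least 10 CPM in 2. The others were the sodium, potassium and chloride cotransporter gene Slc12a2, with reads in 21 cells, and the sodium pump subunit gene Atp1b2, in 31 cells with a median of 159.9 CPM. Of 10 genes used for cochlear neurons, Snap25, which serves vesicle fusion, was in 27 OHCs and the neurofilament gene Nefl in 17, while Nefh and Prph had 0 reads. Splicing regulators differed widely in level: after Rbm24 came Ptbp1, in 30 cells with a median of 108 CPM, and the transcriptional repressor Rest, in 29 cells with a median of 77.0 CPM, while Srrm4, which relieves Rest in developing hair cells, had reads in 3 cells and Esrp1 in none.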
